A study of Mus musculus with 8 samples.

Results

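Cytochromes P450, flavin-containing monooxygenases, cytosolic sulfotransferases and glutathione S-transferases were examined in mouse dorsal root ganglia, which hold the cell bodies of the sensory neurons of the body. Members were taken by gene symbol alone, as numbered Cyp, Fmo and Sult genes and Gst genes of the alpha, mu, pi, theta, kappa, omega and zeta classes, and 143 of the 40800 Ensembl identifiers in the deposited table matched. They comprised 94 Cyp, 7 Fmo, 19 Sult and 23 Gst identifiers. Within these families the rule uses the symbol and no measured value. The families were picked with the mutant against wild-type comparison in view, in which Cyp2j13, Fmo2 and Sult5a1 were already known to be higher, so those 3 genes are given here as a description without a test.

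RNA was sequenced from 4 wild-type C57BL/6 mice and 4 mice homozygous for a Tmem184b gene trap on a C57BL/6 background, all aged 6 months. The inserted trap cassette diverts splicing so that the normal transcript ends early, and every cell of these animals carries it. The labels state no sex, litter or trap clone. Xist, which is expressed from the inactive X chromosome of females, was at a log2 CPM of 7.72 to 8.25 in wild types 1, 4 and 8 and mutants 1 and 2, and at -0.89 to 0.37 in wild type 3 and mutants 3 and 4, so its level was not balanced between the genotypes. Samples are called by genotype and label number, wild types 1, 3, 4 and 8 and mutants 1, 2, 3 and 4. Library totals were 6183622 to 7983826 reads, and 3 reads, taken as the floor of detection, were worth 0.376 to 0.485 CPM, reads scaled to a fixed library total. Tmem184b itself was at 171 ± 8.44 CPM in wild type against 6.65 ± 1.30 CPM in the mutant (SD, n = 4 each), which checks the labels. The 10 sensory neuron markers summed to 12084 to 13441 CPM in the wild types, against 12276 to 13555 CPM in the mutants. Hepatocyte markers, relevant because many of these enzymes are best known from liver, summed to at most 2.09 CPM in any sample. Of those 10 neuron markers, Avil and Mrgprd fell at a limma adjusted p under 0.05 and 8 were not called. The difference was above 0 for 5 of the 10. Among all genes tested 2.64% were called lower. No batch is stated. The p-values set the genotype difference against the spread within each genotype over these 8 samples, moderated over all genes tested.

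These enzymes handle small lipophilic molecules in steps. Cytochromes P450 and flavin-containing monooxygenases add oxygen to drugs, sterols, fatty acids and retinoids, the first with a heme group and electrons from the reductase Por, the second with a flavin. Sulfotransferases and glutathione S-transferases then attach sulfate or glutathione, which makes the product soluble. In the nervous system several members act on the body's own molecules, among them cholesterol, retinoic acid, arachidonic acid and products of lipid peroxidation.

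Most members had few or no reads in the ganglia. No read was recorded in any sample for 61 of the 143 identifiers, and 82 had fewer than 3 reads in every sample. The liver enzymes of bile acid and drug metabolism were among them, with Cyp7a1, Cyp2c29 and Cyp3a11 at 0 reads throughout, below the detection floor given above. The 8 Sult2a genes were also at 0 reads, and Sult2b1 had at most 5. The 4 identifiers for Gstp1 and Gstp2, the pi-class transferases, were listed at 0 in every sample. Of the stretches of 150 bases (the labelled read length) in annotated transcripts, 17.6% for Gstp1 and 35.7% for Gstp2 also occur in another gene's transcripts, so their zeros are reported as listed and not as absence. A further 14 members reached 3 reads but stayed under the filter used for testing, a log2 CPM above 0 in at least 4 of the 8 samples. The 47 members that passed were 27 Cyp, 3 Fmo, 3 Sult and 14 Gst genes, and 4 of them (Cyp2e1, Cyp2t4, Cyp2r1 and Gsta3) were above it in fewer than 4 wild types. For Cyp2e1 and Gsta3 the 4 mutants were enough to meet the filter, beside 1 and 2 wild types above it. Their differences are therefore given without a test.

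Levels spanned a wide range when expressed per kilobase of annotated exon. Sult4a1, a sulfotransferase enriched in neurons whose substrate is not settled, stood highest at 349 CPM per kb in wild type against 344 in the mutant. Gstm5, a mu-class transferase, followed at 43.1 and 49.7 CPM per kb, and Cyp51, the sterol demethylase of cholesterol synthesis, at 24.9 and 27.9. Gstm1 was at 15.9 and 19.7, Cyp2j6 at 12.5 and 14.1 and Gsto1 at 12.5 and 14.2 CPM per kb. Cyp2j6 and Gsto1 could not be ordered by these means.

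Beside Cyp2j13, Fmo2 and Sult5a1, which prompted the choice of the families, Fmo1 and Sult1a1 rose and Cyp2j12 fell in the mutant at a limma adjusted p under 0.05 over all 15030 genes tested. With those 3 included as a description, 5 of the 47 members in the fit lay past the threshold upward and 1 downward. In bulk tissue more cells of a type and more RNA per cell cannot be told apart. Among all genes 5.46% were called, 2.81% higher and 2.64% lower. Because the families were picked from this comparison, the members' share is printed beside that background and nothing is read from it. The difference was above 0 for 39 of the 47 members, with a median of 0.22 on the log2 scale, against 64.4% of all genes tested with a median of 0.07. With samples centred on their medians the count was 34 of 47, with a median of 0.13 against -0.03 for all genes. The groups did not overlap for 12 members that were higher in every mutant, beside 7.5% of all genes, and for 1 that was lower, beside 4.92%. The 12 include Cyp2j13, Fmo2 and Sult5a1, whose rises prompted the choice. They also include Cyp2e1, above the filter in 4 mutants and 1 wild type, with 5 reads each in wild types 3 and 4 and mutant 3. Nothing is read from the counts of groups that did not overlap either. Without the mean-variance trend in the fit, 3 members were called higher and none lower, with 3 lower at an unadjusted p under 0.05 and 1 called lower by voom.

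**Figure D1:**
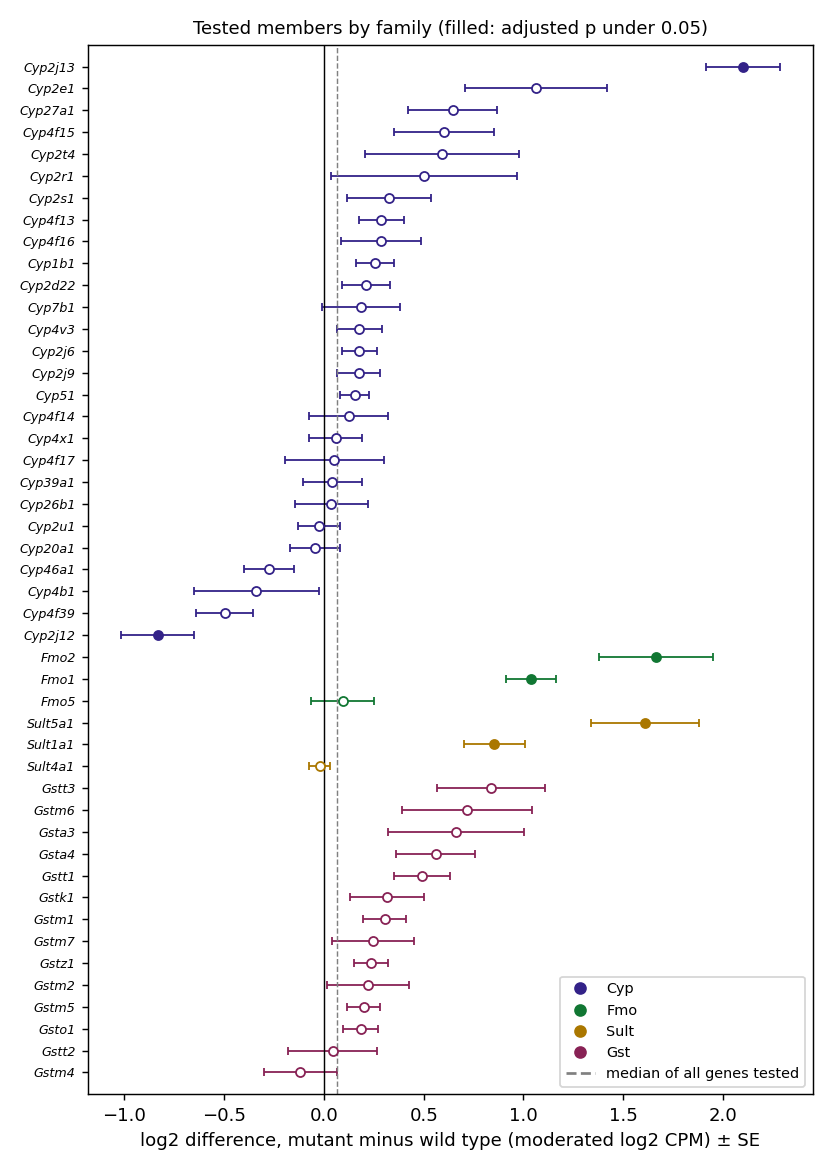
Log2 difference of mutant minus wild type with its standard error for the 47 tested members, by family; filled points are called at an adjusted p under 0.05 and the dashed line is the median of all genes tested. The points of Cyp2j13, Fmo2 and Sult5a1, which prompted the choice of the families, are a description without a test. Cyp2j13 lies farthest right at 2.10, Cyp2j12 farthest left at -0.83, and 13 of the 14 Gst points lie above 0 with none filled.

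The Cyp2j genes form a cluster of 8 members spread over 636.6 kb on chromosome 4 (GRCm38, 96027534 to 96664154, minus strand). They encode P450s known for turning arachidonic acid and related fatty acids into epoxides. Only Cyp2j13, Cyp2j12, Cyp2j6 and Cyp2j9 reached 3 reads in any sample, Cyp2j8 had at most 2, and Cyp2j5, Cyp2j7 and Cyp2j11 had 0 in every sample. Cyp2j13 and Cyp2j12 are neighbours, 21.8 kb apart, at the low-coordinate end of the cluster.

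The RefSeq promoter windows (GRCm38.p6) of this pair and of Cyp2j6, the most abundant member, are shown because the pair moved in opposite directions while Cyp2j6 was not called. Each runs from 250 bases before to 50 after the start site, 5′ to 3′ on the minus strand, at chr4:96077498-96077797 for Cyp2j13, chr4:96141103-96141402 for Cyp2j12 and chr4:96553602-96553901 for Cyp2j6. For each member only the window nearest the annotated gene start was searched, and RefSeq lists 2 for Cyp2j13. Capitals mark matches, on either strand, to the core of the xenobiotic response element (GCGTG) or to the antioxidant response element (TGACNNNGC).
Cyp2j13: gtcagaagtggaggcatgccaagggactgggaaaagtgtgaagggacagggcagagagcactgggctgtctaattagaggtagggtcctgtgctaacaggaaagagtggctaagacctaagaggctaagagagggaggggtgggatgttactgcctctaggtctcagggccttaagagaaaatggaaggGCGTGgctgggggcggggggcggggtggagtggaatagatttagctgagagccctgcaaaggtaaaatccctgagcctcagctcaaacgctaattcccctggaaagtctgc
Cyp2j12: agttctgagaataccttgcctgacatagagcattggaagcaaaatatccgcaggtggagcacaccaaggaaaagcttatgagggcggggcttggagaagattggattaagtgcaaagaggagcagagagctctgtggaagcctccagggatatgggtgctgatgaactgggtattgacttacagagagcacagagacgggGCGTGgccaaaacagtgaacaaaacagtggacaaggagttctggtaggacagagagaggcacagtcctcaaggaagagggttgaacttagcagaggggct
Cyp2j6: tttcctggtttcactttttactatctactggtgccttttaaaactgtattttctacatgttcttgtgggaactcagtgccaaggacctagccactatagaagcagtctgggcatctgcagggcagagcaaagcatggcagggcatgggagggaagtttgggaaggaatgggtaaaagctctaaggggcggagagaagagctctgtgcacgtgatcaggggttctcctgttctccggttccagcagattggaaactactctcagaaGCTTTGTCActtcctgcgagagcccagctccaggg
Cyp2j13 and Cyp2j12 each hold 1 GCGTG, which begins 61 and 50 bases before the start site, and Cyp2j6 holds 1 TGACNNNGC match on the opposite strand. GCGTG occurs in 32.4% of the 32817 RefSeq windows of this length and in 13 of the 37 tested members with a window. TGACNNNGC occurs in 12.4% of all windows and in 4 of those 37. A TATA box (TATAAA) was found in 13.6% of all windows and 5 of the 37, and in none of the 3 printed. The direct repeat of the nuclear receptor half-site AGGTCA with a spacer of 1 base was found in 0.0396% of all windows and in none of the 37.

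Cyp2j13 (ENSMUSG00000028571; chromosome 4, 96027534 to 96077546) had 2.06, 2.13, 3.11 and 2.15 CPM in wild types 1, 3, 4 and 8, from 13 to 21 reads. In mutants 1 to 4 it had 10.8, 13.7, 9.55 and 10.2 CPM, from 62 to 85 reads. Every mutant lay above every wild type by a wide margin. The ratio of the mean levels was 4.68, and the log2 difference was 2.10 (SE 0.184). Cyp2j12 (ENSMUSG00000081225; chromosome 4, 96099318 to 96141152) had 10.002, 9.39, 8.45 and 6.82 CPM in the wild types, against 3.59, 6.15, 4.77 and 4.58 CPM in the mutants. The groups did not overlap, although mutant 2 came close to wild type 8. Its log2 difference was -0.83 (SE 0.183; limma adjusted p = 0.0167), a ratio of means of 0.55. The call was lost without wild type 1 (-0.76; adjusted p = 0.0644), wild type 3 (-0.79; 0.0529) or mutant 1 (-0.71; 0.0529), and without the variance trend (0.0713), and the adjusted p ranged from 0.00650 to 0.0713 over the alternatives.

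In wild type Cyp2j12 was the more abundant of the pair, and in the mutant Cyp2j13 was. The ratio of Cyp2j13 to Cyp2j12 reads was 0.206 to 0.368 in the wild types, against 2.0 to 3.0 in the mutants. The sum of the pair was not constant, at 8.97 to 12.1 CPM in the wild types, against 14.3 to 19.9 CPM in the mutants. Close paralogs can exchange reads, so the annotated transcripts were compared. Cyp2j13 and Cyp2j12 were 80.2% identical over 1179 aligned bases (blastn), and neither shared a stretch of 150 bases with any other gene's annotated transcript. The pseudogene Hspe1-ps6 lies within Cyp2j13 on the same strand.

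Cyp2j6 and Cyp2j9 carried most of the cluster. Cyp2j6 was at 45.0 ± 5.61 CPM in wild type against 50.7 ± 3.01 in the mutant (SD, n = 4), a log2 difference of 0.18 (SE 0.0895; limma adjusted p = 0.273). Cyp2j9 was at 29.4 ± 3.95 and 33.0 ± 3.20 CPM (SD, n = 4), a difference of 0.17 (SE 0.107; limma adjusted p = 0.371). The groups overlapped for both. The whole cluster summed to 78.3 to 91.8 CPM in the wild types, against 93.8 to 107.0 CPM in the mutants, a ratio of 1.17, or 1.10 after median centring. Within that sum the share of Cyp2j13 was 2.76 ± 0.458% in wild type against 11.1 ± 1.94% in the mutant, and that of Cyp2j12 was 10.3 ± 2.37% and 4.80 ± 1.12% (SD, n = 4). Cyp2j6 held 52.6 ± 3.76% and 50.8 ± 1.26%, and Cyp2j9 34.3 ± 3.10% and 33.1 ± 1.85%.

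**Figure D2:**
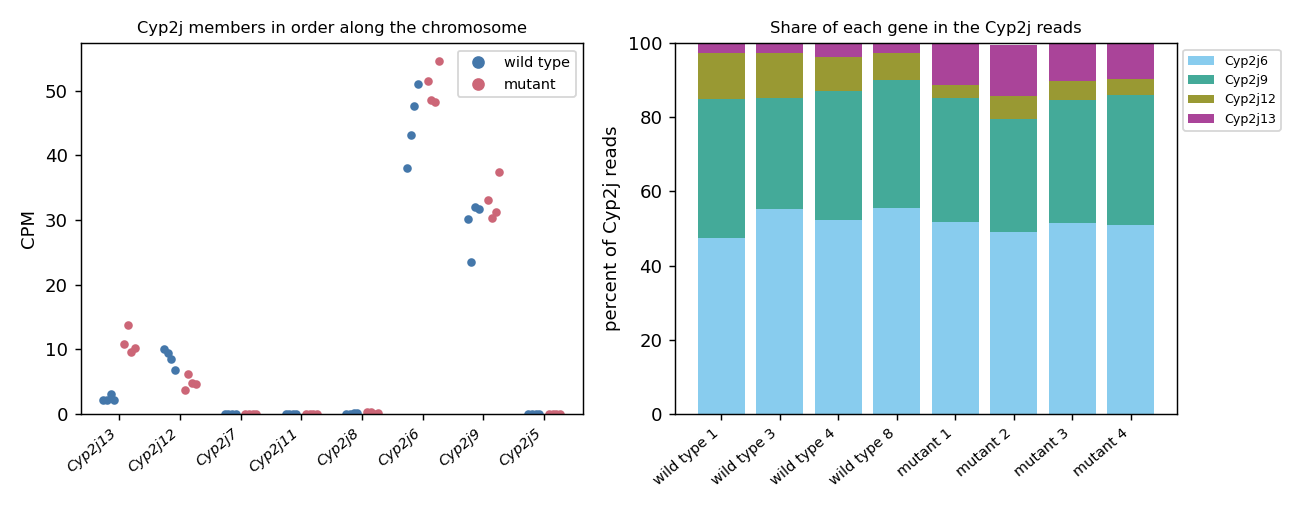
Left, CPM of the 8 Cyp2j genes in their order along the chromosome, 1 point per sample; right, each detected gene's percent of the Cyp2j reads in each sample. Cyp2j13 goes from 2.34 to 3.40% of the reads in the wild types up to 9.49 to 13.9% in the mutants, while Cyp2j12 goes from 7.43 to 12.5% down to 3.61 to 6.21%.

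The other detected P450s are grouped by substrate. Among enzymes of sterols, none was called by limma, and Cyp27a1 and Cyp46a1 were at an unadjusted p under 0.05. Cyp51 had a log2 difference of 0.16 (SE 0.0729; limma adjusted p = 0.235). Cyp46a1, the neuronal cholesterol hydroxylase, was at 14.999 ± 1.01 CPM in wild type against 12.4 ± 1.80 in the mutant (SD, n = 4; difference -0.27; limma adjusted p = 0.217). Cyp27a1, a mitochondrial sterol hydroxylase and the highest Cyp27 gene, was at 5.24, 4.89, 6.52 and 3.66 CPM in the wild types, against 9.41, 8.41, 4.93 and 10.2 in the mutants. Mutant 3 lay among the wild types and the other 3 mutants lay above them all. The difference of 0.64 (SE 0.225; limma adjusted p = 0.112) passed the threshold in 1 of 20 alternatives, without mutant 3, at 0.86 (0.0179). Over all alternatives the adjusted p ranged from 0.0179 to 0.338. The oxysterol hydroxylases Cyp39a1 and Cyp7b1 differed by 0.04 and 0.19 and were not called.

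Of the Cyp4 group, fatty acid hydroxylases, 9 members were tested by limma and none was called, with Cyp4f13, Cyp4f15 and Cyp4f39 at an unadjusted p under 0.05. Cyp4f39 came nearest to the threshold among P450s, at 13.7, 16.5, 13.6 and 11.5 CPM in the wild types, against 8.37, 10.2, 11.5 and 8.72 CPM in the mutants. The groups met at wild type 8 and mutant 3. The difference was -0.50 (SE 0.143; limma adjusted p = 0.0574), with an adjusted p of 0.0290 to 0.163 over the alternatives, 8 of 20 of them under the threshold. Cyp4x1, the most abundant by CPM, differed by 0.06 as deposited and by -0.03 after median centring. Cyp4f13, picked after its values were seen, was higher in every mutant than in any wild type, at 15.2 ± 1.27 against 12.4 ± 1.02 CPM (SD, n = 4; difference 0.29; limma adjusted p = 0.154). Cyp4f15, also picked after its values were seen, differed by 0.60 (SE 0.251; limma adjusted p = 0.177), with its highest value, 10.4 CPM, in mutant 4.

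The other P450s best known for foreign compounds were not called by limma, and Cyp1b1 was at an unadjusted p under 0.05. Cyp1b1, a target of the aryl hydrocarbon receptor outside the liver, was at 34.0 ± 2.58 CPM in wild type against 40.8 ± 5.44 in the mutant (SD, n = 4; difference 0.26; limma adjusted p = 0.141). Its relative Cyp1a1 had 1 to 4 reads in each sample. Cyp2e1, which oxidises ethanol and was picked after its values were seen, had 1, 5, 5 and 3 reads in the wild types, against 13, 8, 5 and 8 in the mutants. Its difference of 1.06 (SE 0.355) rests on those few reads and is given as a description. Cyp20a1, an orphan P450, differed by -0.05 (SE 0.125; limma adjusted p = 0.871).

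The Cyp26 enzymes break down retinoic acid. Cyp26b1 was the one tested, at 9.67 ± 2.17 CPM in wild type against 9.90 ± 2.04 in the mutant (SD, n = 4; difference 0.04; limma adjusted p = 0.936), with a sign that changed under median centring. Cyp26a1 and Cyp26c1, 4.40 kb apart on chromosome 19, stayed under the filter and were picked after their values were seen. Cyp26a1 had 1 read in each wild type and 9, 4, 6 and 5 reads in the mutants, a ratio per library read of 6.59. Cyp26c1 had 1, 0, 2 and 3 reads in the wild types, against 4, 6, 6 and 7 in the mutants, a ratio of 4.21. Each was higher in every mutant than in any wild type. Both lay above the filter level in 3 mutants and in no wild type. They were picked for these values, so a fit with no filter could not test them, and none is given.

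Of the flavin-containing monooxygenases, Fmo1 rose, Fmo2 was higher in every mutant and Fmo5 was not called. Fmo1 and Fmo2, enzymes that oxygenate nitrogen and sulfur in drugs and amines and are found outside the liver in mice, are neighbours 7.71 kb apart on chromosome 1. Fmo1 (ENSMUSG00000040181; chromosome 1, 162829561 to 162866610) had 15.6, 21.3, 18.7 and 19.7 CPM in the wild types, against 43.6, 41.4, 29.7 and 41.6 CPM in the mutants. Mutant 3 was the lowest mutant and still exceeded every wild type. The log2 difference was 1.04 (SE 0.126; limma adjusted p = 0.000461), and it was called in all 20 alternatives, with a highest adjusted p of 0.0335. Fmo2 (ENSMUSG00000040170; chromosome 1, 162874317 to 162898726) had 7.46, 11.1, 14.5 and 16.7 CPM in the wild types, against 56.9, 52.4, 19.6 and 37.3 CPM in the mutants. The mutants spread over a range of almost 3 to 1, and mutant 3 lay just above wild type 8. The log2 difference was 1.66 (SE 0.286), a ratio of means of 3.34. Fmo5, on chromosome 3, was at 8.59 ± 1.02 and 9.26 ± 1.72 CPM (SD, n = 4; difference 0.09; limma adjusted p = 0.780). On chromosome 1, Fmo4 had 1 to 8 reads per sample, Fmo6 1 to 4 and Fmo9 at most 1.

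Among the sulfotransferases, Sult1a1 rose, Sult5a1 was higher in every mutant and Sult4a1 was not called. Sult1a1 (ENSMUSG00000030711; chromosome 7, 126672865 to 126676432), which sulfates phenols, had 12.5, 13.2, 9.19 and 12.4 CPM in the wild types, against 23.0, 21.7, 16.0 and 26.2 CPM in the mutants. The groups did not overlap, with wild type 4 the lowest of its group and mutant 3 of its own. The log2 difference was 0.85 (SE 0.152; limma adjusted p = 0.00531), and the call was lost without the variance trend alone (0.0665). Sgf29 overlaps it on the other strand, and whether counting used the strand is not given in the sources used here. Sult5a1 (ENSMUSG00000000739; chromosome 8, 123140192 to 123158315), a little studied member, had 1.43, 0.877, 1.04 and 1.26 CPM in the wild types, from 7 to 10 reads, and 5.53, 3.72, 2.46 and 5.29 CPM in the mutants, from 16 to 37 reads. The log2 difference was 1.61 (SE 0.269), and Gm20388 overlaps it on the other strand. Sult4a1 (chromosome 15), the highest member of the whole set, was at 878 ± 21.8 CPM in wild type against 865 ± 52.1 in the mutant (SD, n = 4; difference -0.02; SE 0.0546; limma adjusted p = 0.860).

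The promoter windows of Fmo2 (chr1:162898709-162899008, minus strand) and Sult5a1 (chr8:123158231-123158530, minus strand) are shown as those of the members with the largest differences after Cyp2j13. They run as those above, and none of the 4 motifs searched has a match in either window, so no base is in capitals. RefSeq lists 2 windows for Fmo2, and the other was neither searched nor shown.
Fmo2: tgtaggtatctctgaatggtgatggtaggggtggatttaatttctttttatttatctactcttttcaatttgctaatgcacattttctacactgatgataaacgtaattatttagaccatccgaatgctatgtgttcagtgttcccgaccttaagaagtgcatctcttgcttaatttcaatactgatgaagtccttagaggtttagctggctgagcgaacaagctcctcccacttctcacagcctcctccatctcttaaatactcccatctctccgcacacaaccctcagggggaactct
Sult5a1: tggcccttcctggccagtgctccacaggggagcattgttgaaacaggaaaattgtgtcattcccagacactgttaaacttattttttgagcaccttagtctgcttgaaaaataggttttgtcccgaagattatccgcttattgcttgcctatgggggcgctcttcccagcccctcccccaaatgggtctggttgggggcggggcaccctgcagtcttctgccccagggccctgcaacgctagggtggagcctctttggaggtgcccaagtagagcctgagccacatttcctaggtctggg

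**Figure D3:**
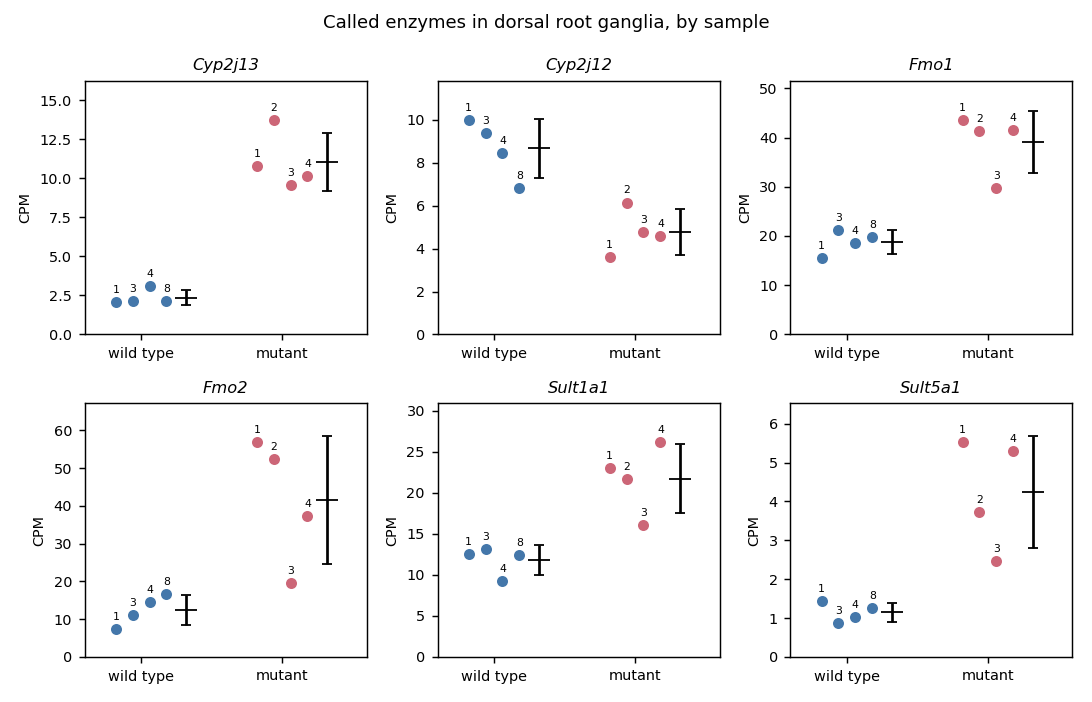
CPM of the 6 members past the threshold in each sample, points labelled by sample number, with mean and SD at the right of each genotype (n = 4). Cyp2j13, Fmo2 and Sult5a1 prompted the choice of the families and are shown as a description without a test. The groups do not overlap in any panel, and mutant 3 is the lowest mutant in all 5 panels of genes that were higher.

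Mutant 3 was the lowest mutant for Fmo1 and Sult1a1 and for Cyp2j13, Fmo2 and Sult5a1. Its Xist level was low, as was that of mutant 4. The same sample was the lowest mutant in the summed level of markers of several non-neuronal cells and of sensory neurons (12276 CPM). For Schwann cell markers the lowest was mutant 2 (2614 CPM), and for skeletal muscle markers mutant 1 (12.1 CPM). The 8 fibroblast markers summed to 1200, 985, 1758 and 1050 CPM in the wild types, against 1636, 1572, 1345 and 2015 CPM in the mutants, and 2 of them rose (Dcn and Apod). Wild type 4 was high for these markers and overlapped the mutants. The 7 meningeal and perineurial markers summed to 175 to 292 CPM in the wild types, against 253 to 314 CPM in the mutants, and 2 of them rose. Satellite glia markers summed to 2078 to 2560 and 2385 to 3272 CPM, with 3 of 8 called higher. Adipocyte markers summed to 4.74 to 12.8 and 7.08 to 36.9 CPM, with none of the 2 tested called (1 at an unadjusted limma p under 0.05, none by voom). Skeletal muscle markers summed to 3.81 to 40.2 and 12.1 to 172 CPM, with none of 7 called (6 at an unadjusted p under 0.05, none by voom). Macrophage and other immune markers summed to 39.2 to 60.0 and 48.3 to 80.4 CPM, with mutant 3 the lowest mutant and Cd163 called higher. Schwann cell markers summed to 2245 to 2954 and 2614 to 3140 CPM, with Ncmap called higher. The list for central nervous system cells (Gfap, Mog, Olig2, Aqp4, Slc17a7, Gad1, Sox10 and Slc1a2) summed to 303 to 316 and 328 to 351 CPM. None of 7 tested was called (3 at an unadjusted p under 0.05, none by voom). These ranges did not overlap, but no share of other sums stands beside that. Whether such cells were present was not tested. Every marker in these 8 lists had reads in at least 1 sample. The part of these cells in the rises was not tested. Without mutant 3, the log2 difference was 1.16 for Fmo1 and 0.99 for Sult1a1, and both were called. With Xist as a covariate it was 1.05 for Fmo1, 0.85 for Sult1a1 and -0.85 for Cyp2j12, and all 3 were called.

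**Figure D4:**
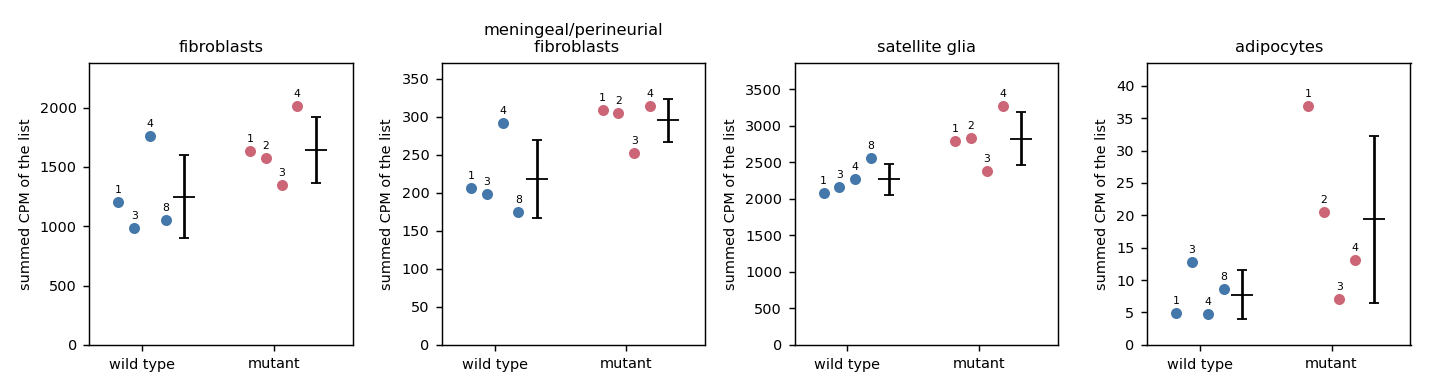
Summed CPM of 4 marker lists in each sample, points labelled by sample number, with mean and SD at the right of each genotype (n = 4). Mutant 3 is the lowest mutant in every panel, and wild type 4 reaches the mutants in the fibroblast lists, at 1758 and 292 CPM.

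No glutathione S-transferase was called among the 14 tested by limma or voom, and 7 were at an unadjusted limma p under 0.05. The share of all genes at that unadjusted level was not counted, so nothing is read from the 7. Of the 14, 13 had a difference above 0, and 12 of 14 after median centring. The theta-class members Gstt1 and Gstt3, 2.40 kb apart on chromosome 10, came nearest to a call. Gstt1 was at 9.21, 9.52, 9.04 and 12.8 CPM in the wild types, against 13.9, 12.6, 13.6 and 17.2 CPM in the mutants. Wild type 8 stood above mutant 2, and the other wild types lay below all mutants. The difference was 0.49 (SE 0.142; limma adjusted p = 0.0583), and without wild type 8 it was 0.60 (0.0260). Gstt1 was called in 4 of 20 alternatives, with an adjusted p of 0.0260 to 0.167. Gstt3 was at 1.39 ± 0.402 and 2.70 ± 0.679 CPM (SD, n = 4; difference 0.84; limma adjusted p = 0.0856), and 9.56% of its 150-base stretches are shared with Gm20441, which overlaps it.

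The abundant transferases had small differences. Gstm5 was at 55.1 ± 3.24 CPM in wild type against 63.5 ± 7.17 in the mutant, and its groups did not overlap (SD, n = 4; difference 0.20; limma adjusted p = 0.173). Gsto1, the omega-class member, was at 25.2 ± 0.937 and 28.7 ± 2.77 CPM (SD, n = 4; difference 0.18; limma adjusted p = 0.246). Gstz1, which acts in tyrosine breakdown, was at 23.7 ± 1.65 and 27.9 ± 1.15 CPM (SD, n = 4; difference 0.24; limma adjusted p = 0.125). Both also had groups that did not overlap. Gstm1, picked after its values were seen, differed by 0.30 (limma adjusted p = 0.114), Gstk1 by 0.32 (0.350) and Gsta4, which conjugates aldehydes of lipid peroxidation, by 0.56 (0.115). Gstm4 was the only tested transferase below 0, at -0.12 (limma adjusted p = 0.763).

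Genes around these enzymes were read from lists chosen with earlier results known. None of the 15 tested P450 redox partners and heme enzymes was called, and Por was at 53.4 ± 4.003 and 63.7 ± 7.68 CPM (SD, n = 4; difference 0.25; limma adjusted p = 0.119). None of the 15 tested xenobiotic-sensing receptors and partners was called. Ahr, the aryl hydrocarbon receptor, was lower in every mutant than in any wild type, at 17.8 ± 0.611 against 21.9 ± 2.99 CPM (SD, n = 4; difference -0.29; limma adjusted p = 0.134). None of the 17 Nrf2-responsive genes was called, and Nqo1 differed by 0.12 (limma adjusted p = 0.722). None of the 22 tested genes of glutathione synthesis, reduction and peroxidases was called, and Gclc differed by 0.11 (limma adjusted p = 0.386). At an unadjusted limma p under 0.05 these 4 lists held 5, 4, 4 and 5 genes, and voom called none in any of them. These unadjusted counts also have no share of all genes beside them. The median difference of these 4 lists was 0.00, 0.06, 0.09 and 0.16, beside 0.07 for all genes tested.

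In the remaining lists 4 genes rose and 1 fell, beside Slc15a2, whose difference was known when its list was made. Of 11 tested epoxide hydrolases and eicosanoid enzymes, Ptges rose. Ptges, a prostaglandin E synthase that uses glutathione, went from 7.71 ± 0.856 to 13.8 ± 2.13 CPM (SD, n = 4; difference 0.81; limma adjusted p = 0.00490), while the epoxide hydrolases Ephx1 and Ephx2, which act on Cyp2j products, differed by 0.15 and 0.16 and were not called. Of 5 tested glucuronosyl and other conjugating enzymes, Inmt, an amine methyltransferase, had 4 to 10 reads per wild-type library against 7 to 32 per mutant library. Inmt rose by 1.52 (SE 0.371; limma adjusted p = 0.0278), and its groups overlapped. Voom on the recovered reads called none of those 5. Of 17 aldehyde and carbonyl oxidoreductases, Aldh2, the mitochondrial aldehyde dehydrogenase, rose by 0.34 (limma adjusted p = 0.0120). Of 13 transporters, Abcg2, an exporter of drugs and conjugates, rose by 0.40 (limma adjusted p = 0.0432). The peptide carrier Slc15a2 was at 2.32 ± 0.646 CPM in wild type against 8.53 ± 3.92 in the mutant (SD, n = 4), given as a description without a test. Of 10 genes of sulfate supply and sulfatases, Arsb, a lysosomal sulfatase, fell by 0.42 (limma adjusted p = 0.0212), and Papss1, which makes the sulfate donor, differed by 0.04 (0.805).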

How the data were processed

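Total RNA from dorsal root ganglia of 8 mice was sequenced as single-end Illumina reads, per the labels' protocols. The values the authors deposited are moderated log2 CPM in 1 table, per the file headers and its values: log2 of reads scaled to a fixed library total, with a prior count added. The submitters' processing notes list Salmon 0.11.1, DESeq2 and mm9, without their roles. Annotation release and strand use are not given in the sources used here.

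Of 41422 lines, 402 identifiers were repeated, and each was used once. Above a floor shared by all columns, 100% of the values were whole multiples of 1 read (within 0.02 of a read), which gave reads and library totals. The genotypes were compared by two-sided moderated tests (limma 3.58.1, R 4.3.3) with a variance prior that follows the mean level and no covariates, and p-values were adjusted by Benjamini-Hochberg over all genes tested. Counts at an unadjusted p under 0.05 have no share of all genes beside them, and nothing is read from them. Log2 differences are on the moderated scale and understate those of genes with few reads. The fit was also run on simulated reads, with the same spread setting for every gene. Changes were placed only in genes above a minimum of reads, so that run does not cover members with few reads.

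Named are the called members, detected Cyp2j genes, the highest tested member of each family or class, the largest difference in each direction and the call nearest the threshold per family, tested members within 5 Mb of Tmem184b, and called members and leading genes of the lists; others are said to be picked after their values were seen. Members and lists were chosen with earlier results of these data known. Positions and transcripts come from GENCODE M21 (GRCm38, not the authors' build; 141 of 143 members matched), promoters from RefSeq GRCm38.p6 (114 members matched). Alignment used blastn 2.17.0, tables Python 3.11.15, pandas 2.3.3, numpy 2.4.6 and scipy 1.17.1, and plots matplotlib 3.10.9. Alternatives changed the filter, the pseudocount, scaling, the variance model, sample weights, voom on recovered reads, Xist as a covariate, a replicate block, the threshold and each sample left out.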

Additional observations from a re-analysis of the deposited data

Results flagged for a closer look

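Of 64 groups of 4 values examined, 7 held 1 sample standing apart from its group, and chance would give about 3.2. On the log2 CPM scale, Cyp2j13 in wild type 4 was at 1.77 against 1.23 to 1.28, from 21 reads. Fmo1 in mutant 3 was at 4.91 against 5.38 to 5.46. Gsta4 in mutant 4 was at 3.96 against 3.32 to 3.34. Gsto1 in mutant 4 was at 5.05 against 4.78 to 4.80. Gstt1 in wild type 8 was at 3.71 against 3.22 to 3.29. Gstt3 in wild type 1 was at 0.12 against 0.85 to 0.94, from 5 reads. Sult1a1 in wild type 4 was at 3.24 against 3.66 to 3.75.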

How the results depend on the processing

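Fmo1 was called in all 20 alternatives, Sult1a1 in 19 and Cyp2j12 in 16, each in the same direction. The counts that follow include Cyp2j13, Fmo2 and Sult5a1, which prompted the choice of the families, and support nothing about those 3. Members called higher numbered 5 as reported, 3 without the variance trend, where Fmo2 and Sult1a1 were lost, and 8 at an adjusted p under 0.1. Under the robust trend the count was 5, with Fmo2 out and Gstt1 in. Members called lower numbered 1 as reported and 0 without the variance trend. They numbered 2 under median centring, quantile normalization, the robust trend, sample weights, the Xist covariate, the replicate block and an adjusted p under 0.1, by the addition of Cyp4f39. With 1 sample left out, members called higher ranged from 5 to 6 and lower from 0 to 2, and the Cyp2j ratio from 1.14 to 1.20.

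Whether the shared numbers 1, 3 and 4 pair the samples is not known. Same-numbered deviations correlated at 0.081, 0.041 and 0.058, but unlike-numbered ones were not compared. The replicate block over these 6 samples gave 7 members higher and 2 lower, and a fit of those samples with no block gave 6 and 1. Added there were Gstt1 with and without the block (0.66; adjusted p = 0.0323 and 0.0321) and Gsta4 with it (0.76; 0.0464).

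Among the 32 members followed through the alternatives, reversals were confined to 6 uncalled ones near 0. The other tested members were not followed singly. Under median centring the members above 0 fell from 21 to 17 for Cyp and from 13 to 12 for Gst. Under median centring Cyp26b1 was at -0.055, Cyp39a1 at -0.050 and Cyp4x1 at -0.034. Under quantile normalization Cyp26b1 was at -0.076, Cyp39a1 at -0.068, Cyp4x1 at -0.0061, Fmo5 at -0.020 and Sult4a1 at 0.056. With sample weights Cyp26b1 was at -0.019, Cyp39a1 at -0.0033 and Cyp4x1 at -0.0020, and with the Xist covariate Cyp4x1 was at -0.014. With 1 sample left out, Cyp26b1 ranged from -0.11 to 0.16, Cyp39a1 from -0.037 to 0.16, Cyp4x1 from -0.052 to 0.15, Cyp20a1 from -0.12 to 0.066, Fmo5 from -0.0060 to 0.21 and Sult4a1 from -0.063 to 0.0014. The causes were not tested. Depth limits genes such as Cyp26a1, Cyp26c1 and Cyp2e1, whose levels in wild type were at most 5 reads per library.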

Other observations

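Tmem184b lies on chromosome 15, and 11 members lie within 5 Mb of it. Of these 9 had fewer than 3 reads in every sample, among them most of the Cyp2d genes. Cyp2d22, 2.97 Mb away, was at 19.1 ± 2.54 CPM in wild type against 22.1 ± 2.73 in the mutant (SD, n = 4), a log2 difference of 0.21 (SE 0.119; limma adjusted p = 0.329), with overlapping groups. Sult4a1, 4.67 Mb away, was not called, as given above.

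Enzymes that make retinoic acid were measured beside the Cyp26 enzymes that break it down. Aldh1a1 was at 9.81 ± 1.37 and 10.9 ± 3.18 CPM in wild type against mutant, Aldh1a2 at 2.90 ± 2.86 and 3.88 ± 1.24, and Aldh1a3 at 2.80 ± 0.632 and 4.54 ± 1.20 (SD, n = 4 each). None was called (limma adjusted p = 0.799, 0.385 and 0.123), and the groups overlapped for all 3.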
